A study of Mus musculus with 27 samples.

Results

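Genes of cell adhesion and cell junctions, 66 in number, were followed in laser-captured mouse pancreatic islets while Myc was switched on and off in beta cells. They were chosen by gene symbol: cadherins without Cdh5, protocadherins, catenins, integrin subunits, claudins, connexins of gap junctions, the tight junction scaffold Tjp1, and the named genes Ocln, Jup, Ncam1, Epcam and Dsp. The 66 stand among 8251 genes that the array measures under 1 symbol. Each gene is given by 1 probe set, the one with the highest mean over all 27 arrays. The symbol rule also took in Itgb1bp1, which encodes a protein that binds the tail of an integrin and is no integrin itself.

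The transgenes in all mice were MycER, whose Myc portion works only when 4-hydroxytamoxifen binds, and BclXL, which protects cells from death; each had an insulin promoter. There were 9 groups of 3 arrays: untreated mice at time 0, mice killed 2, 4, 8 or 24 h after an injection of 4-hydroxytamoxifen, mice dosed with tamoxifen every day for 21 days, and mice 2, 4 or 6 days after the end of such dosing ("days off"). For the 21-day group the labels differ on the drug: the treatment text names tamoxifen and the titles name 4OHT, the label for 4-hydroxytamoxifen. No group lacked MycER or received an injection without drug, so effects of the drug, the injection and Myc cannot be told apart. The labels do not say whether the 3 arrays of a group came from separate mice, so the spread behind each p-value is that of these arrays and may be technical. The transgenes act in beta cells, but a captured islet also holds endothelial, stromal, blood and some exocrine cells, which have junctions and integrins of their own.

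Cadherins join neighbouring cells through their outer domains, and their tails hold beta-catenin (Ctnnb1) or plakoglobin (Jup) and p120 catenin (Ctnnd1). Alpha-catenins (Ctnna1, Ctnna2) tie this complex to actin, and desmoplakin (Dsp) ties desmosomes to intermediate filaments. Claudins and occludin (Ocln) seal the space between epithelial cells at tight junctions, connexins form the channels of gap junctions, and integrins, each an alpha with a beta subunit, hold cells to the extracellular matrix or to other cells. In islets, E-cadherin (Cdh1) and N-cadherin (Cdh2) join beta cells to each other, and gap junctions couple their electrical activity.

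The deposited values are log2 signals, on which 1 unit is a doubling. Array medians ran from 6.91 to 7.01. Across probe sets, which are not independent replicates, pairs of arrays in the same group had r of 0.957 to 0.992. The islet label was matched by beta cell markers, with Ins2 at 13.74 and Iapp at 12.62 on average over all arrays. Some of these markers moved with the comparisons. Of 13 measured, 4 were called lower and 0 higher at 21 days against untreated islets. At 6 days off against untreated islets 3 were lower and 0 higher. Of all genes, 8.46% were lower at 21 days and 7.95% at 6 days off. As a guide to dim signal, 15 probe sets for bacterial genes had means between 3.58 and 7.14 with a median of 3.97. The brightest, PheX-3 at 7.14, stood apart, as the next, ThrX-3, averaged 5.68. Of the 66 genes, 26 had a mean above all of these controls and 40 did not, of which 4 lay below the control median. The 26 were Cdh1, Cdh3, Cdh4, Ctnna1, Ctnna2, Ctnnb1, Ctnnbip1, Ctnnd1, Ctnnd2, Jup, Cldn4, Tjp1, Gja1, Gja4, Gja5, Itga7, Itgav, Itgax, Itgb1, Itgb4, Itgb5, Itgb7, Itgb1bp1, Dsp, Ncam1 and Pcdh12. All others of the 66 but Cdh9 lie within the range of the bacterial controls, whether or not this is said again beside them. Cdh9, at 3.27, lies below the mean of every control. Each array reads a whole captured islet, so fewer cells of a type and less RNA per cell cannot be told apart.

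A gene was called where limma, fitted to all arrays, gave an adjusted p under 0.05 over all 12422 probe sets tested. Of the 66 genes, 16 were called in at least 1 of 10 comparisons, in 25 pairs of gene and comparison, and 44 were called neither there nor by an F test over all 9 groups. The share of all genes called in at least 1 comparison was not counted. The 16, and the counts by gene class below, therefore cannot be read as a result particular to adhesion genes. The calls lay in comparisons that involve 21 days of dosing or the later days off. Alpha-catenin Ctnna1 was lower after 21 days of dosing and higher again 4 days after withdrawal, and beta-catenin Ctnnb1 was higher 4 days after withdrawal than at 21 days. Desmoplakin was lower at 21 days and at 6 days off than in untreated islets. E-cadherin was called in no comparison.

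After 21 days of dosing against untreated islets, 7 of the 66 genes (10.6%) were called, where 16.4% of all 8251 genes were. There were 4 higher, where 7.95% of all genes were higher, and 3 lower, where 8.46% were lower. At 21 days against 24 h, 7 genes (10.6%) were called, 6 higher and 1 lower, where 21.8% of all genes were called, 11.4% higher and 10.4% lower. In both comparisons the share of adhesion genes called was below that of all genes. At 4 days off against 21 days, 5 genes (7.58%) were called, 2 higher and 3 lower, where 6.91% of all genes were called, 4.52% higher and 2.39% lower. At 6 days off against untreated, 6 genes (9.09%) were called, 1 higher and 5 lower, where 13.5% of all genes were called, 5.56% higher and 7.95% lower. The F test called 17 of the 66 (25.8%), where it called 41.8% of all genes. These comparisons share the 21 day or the untreated arrays, so their calls are not independent.

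The median difference of the 66 genes was 0.00 at 21 days against untreated, with 33 genes above 0, and the median of all genes was 0.03. Against 24 h, 21 days gave a median of 0.06, and 0.06 for all genes. Against 21 days, 4 days off gave a median of -0.15, with 12 genes above 0, and -0.06 for all genes. The median was also below that of all genes at 2 days off against 21 days, at -0.13 with 11 genes above 0 and -0.05 for all genes, and at 8 h against untreated, at -0.12 with 11 above 0 and -0.05 for all genes. At 6 days off against untreated it was -0.04, and 0.00 for all genes. At 2, 4 and 24 h against untreated it was -0.11, -0.055 and -0.08, with -0.06, -0.02 and -0.04 for all genes. At 6 days off against 21 days it was -0.06, and -0.03 for all genes. Of the 10 comparisons, only 21 days against 24 h did not have a median below that of all genes.

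**Figure D1:**
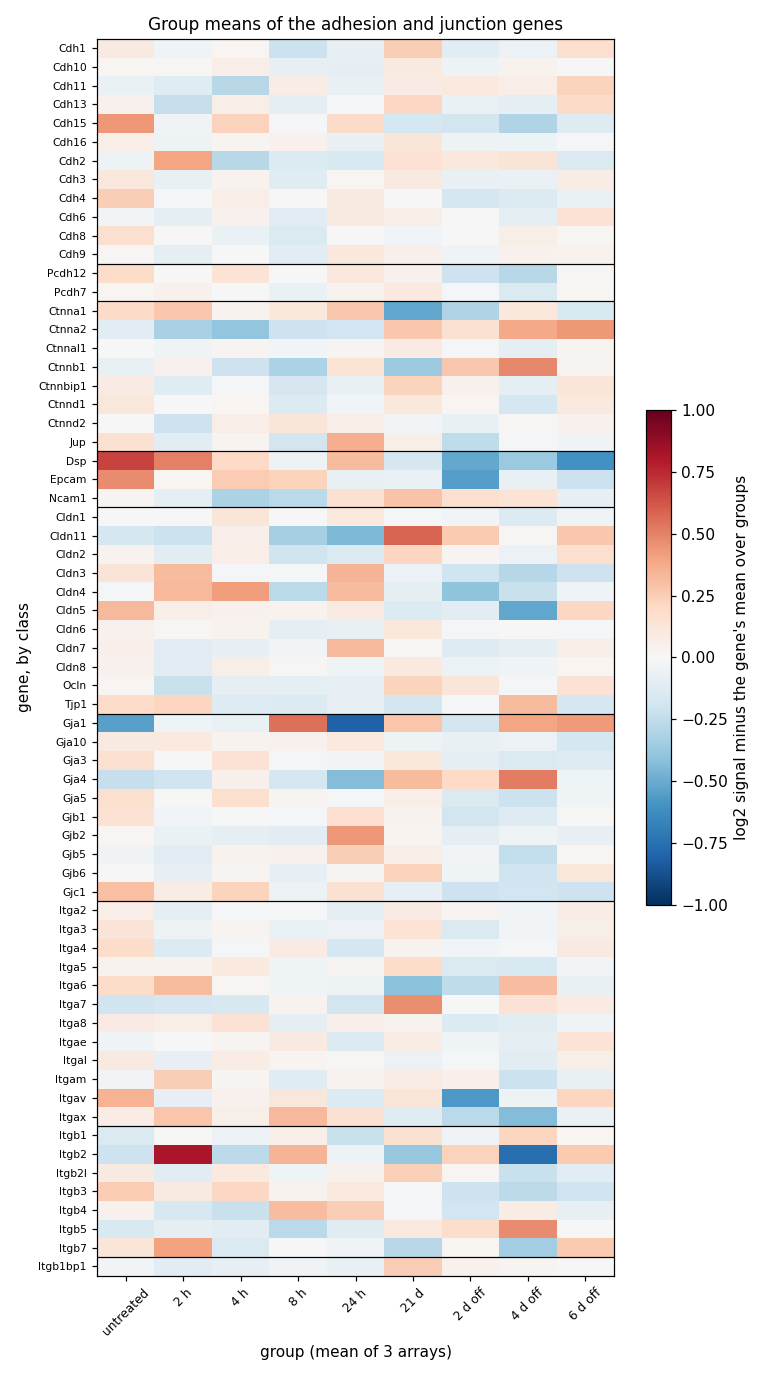
Group means of the 66 adhesion and junction genes. Each row is a gene, ordered by class, each column a group of 3 arrays, and colour gives the log2 signal minus the gene's own mean over the 9 groups. The row of Ctnna1 is lowest at 21 d, and that of Dsp is highest in untreated islets and lowest at 6 d off.

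In the first day after injection no adhesion gene passed the test. The limma counts were 0 of 66 at 2 h, where 0.485% of all genes were called, 0 at 4 h, where 0.909% were, 0 at 8 h, where 1.91% were, and 0 at 24 h, where 1.58% were. At an unadjusted p under 0.05 the counts higher and lower were 1 and 4 at 2 h, 0 and 1 at 4 h, 1 and 11 at 8 h, and 2 and 1 at 24 h. In both directions together that is 7.58%, 1.52%, 18.2% and 4.55% of the 66 genes at 2, 4, 8 and 24 h, where 12.7%, 9.68%, 17.1% and 12.6% of all genes passed the same threshold. With array weights limma called 0, 0, 0 and 0 at these times, and 1.25%, 0.909%, 1.41% and 2.96% of all genes. Dsp was among the lower genes at 8 h, with readings of 7.15, 7.53 and 7.23 at 8 h, against 7.26, 8.41 and 8.42 in untreated islets. One untreated array was as low as those at 8 h, so the groups overlap, and the difference of -0.73 ± 0.25 (SE) had an adjusted p of 0.16.

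Among the 8 catenins, Ctnna1, Ctnna2 and Ctnnb1 were called in a comparison, and Jup by the F test alone. Ctnna1, the alpha-catenin of epithelia, read 7.64, 7.44 and 7.61 at 21 days, against 8.16, 8.16 and 8.51 in untreated islets and 8.17, 8.30 and 8.58 at 24 h. All 3 arrays at 21 days lay below every array of both other groups. Ctnna1 fell by 0.71 ± 0.16 (SE) on the log2 scale against untreated islets (adjusted p = 0.00498), 1.64-fold lower. Against 24 h it fell by 0.79 ± 0.16 (adjusted p = 0.00191). This call was not kept with the acinar and leukocyte marker means as covariates (adjusted p = 0.0969). The call against untreated islets was kept in all 6 fits that each left out 1 array (adjusted p at most 0.0286). A second Ctnna1 probe set, whose mean was 4.70 at 21 days and 4.87 in untreated islets, was not called, at -0.16 ± 0.12.

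Ctnna1 was higher 4 days after withdrawal than at 21 days. It read 7.47, 7.81 and 8.07 at 2 days off, 8.15, 8.40 and 8.01 at 4 days off and 7.89, 7.87 and 8.04 at 6 days off. The arrays at 4 and at 6 days off all lay above those at 21 days, and those at 2 days off overlapped them. The rise at 4 days off was 0.62 ± 0.16 (adjusted p = 0.0309), and the call was not kept without replicate 1 or 2 at 21 days or replicate 1 or 2 at 4 days off (adjusted p up to 0.129). At 6 days off the difference from 21 days was 0.37 ± 0.16 (adjusted p = 0.31), and that from untreated islets -0.34 ± 0.16 (adjusted p = 0.179).

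Ctnna2, the alpha-catenin best known from neurons, was called higher in 2 comparisons. It read 7.90, 8.01 and 7.62 at 21 days, against 7.50, 7.52 and 7.12 at 24 h, a rise of 0.46 ± 0.14 (adjusted p = 0.0236). At 6 days off it read 7.85, 8.13 and 8.03, against 7.39, 7.51 and 7.47 in untreated islets, a rise of 0.55 ± 0.14 (adjusted p = 0.0142). The arrays do not overlap in either comparison. The call at 21 days was not kept without replicate 1 or 2 at 21 days or replicate 3 at 24 h (adjusted p up to 0.146), and that at 6 days off was not kept without replicate 2 at 6 days off or replicate 1 in untreated islets (adjusted p up to 0.0631). Against untreated islets the difference at 21 days was 0.39 ± 0.14 (adjusted p = 0.0682), again without overlap. Of the other Ctnna2 probe sets at 21 days against 24 h, 1 was called, at 0.56 ± 0.18 (adjusted p = 0.0313), and 1 was not, at 0.17 ± 0.18. For 6 days off against untreated islets neither was called, at 0.26 ± 0.18 and 0.24 ± 0.18, and the mean of the Ctnna2 probe sets had an adjusted p of 0.088.

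Ctnnb1, which both holds cadherins and carries Wnt signals to the nucleus, read 10.85, 10.67 and 10.69 at 4 days off, against 9.78, 9.74 and 10.16 at 21 days. The arrays do not overlap, and the rise was 0.84 ± 0.25 (adjusted p = 0.0478). The call was not kept without replicate 1 or 2 at 21 days or replicate 1, 2 or 3 at 4 days off (adjusted p up to 0.178). Untreated arrays spread widely, at 9.43, 10.47 and 10.63, and the difference of -0.28 ± 0.25 at 21 days against them was not called (adjusted p = 0.488). Ctnnd1, which keeps cadherins at the membrane, had group means between 9.69 and 9.97 and was called nowhere. Jup, found in adherens junctions and desmosomes, was highest at 24 h, at 8.00, 7.76 and 7.99, and lowest at 2 days off, at 7.35, 7.23 and 7.31, and passed the F test (adjusted p = 0.0175) but no comparison.

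Desmoplakin, the plaque protein of desmosomes, had the largest called difference of the 66 genes. Dsp read 6.66, 6.95 and 6.63 at 6 days off, against 7.26, 8.41 and 8.42 in untreated islets. No array at 6 days off reached the untreated ones, although 1 untreated array stood well below the other 2. Dsp fell by 1.28 ± 0.25 (adjusted p = 0.0023), 2.43-fold lower, and the call was kept in all 6 fits that each left out 1 array (adjusted p at most 0.0148). With a fit to only the 6 arrays compared it was not called (adjusted p = 0.1). At 21 days Dsp read 6.81, 7.46 and 7.29 and fell by 0.84 ± 0.25 against untreated islets (adjusted p = 0.027), with groups that overlap. That call was not kept without replicate 1 at 21 days or replicate 2 or 3 in untreated islets (adjusted p up to 0.131). The difference of 4 days off from 21 days was -0.20 ± 0.25 (adjusted p = 0.61). A second Dsp probe set averaged 3.21 at 6 days off and 3.17 in untreated islets, below every bacterial control, and was not called.

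**Figure D2:**
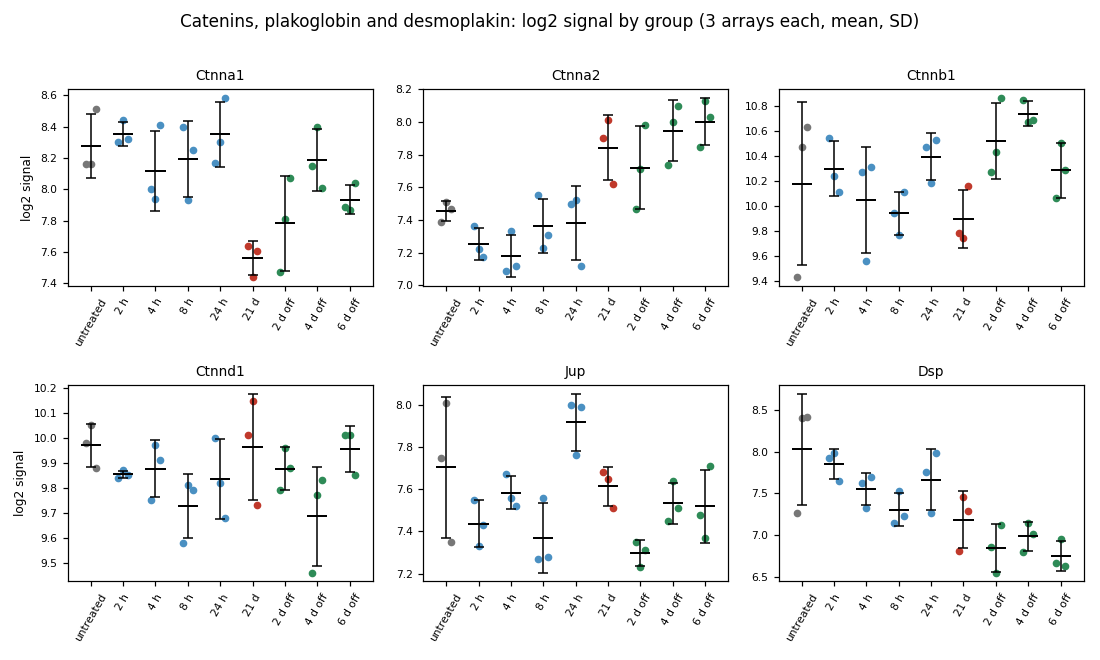
Log2 signal (vertical axis) of 5 catenins and Dsp in each of the 9 groups (horizontal axis). Points are arrays, and means of 3 arrays are shown with their SD. The Ctnna1 arrays at 21 d lie between 7.44 and 7.64, below all untreated and 24 h arrays, and the Ctnnb1 arrays at 4 d off lie between 10.67 and 10.85.

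Start-site windows of 4 called genes are shown, 3 junction genes described above and the connexin Gja4, to set genes called higher and lower beside each other. They come from RefSeq on GRCm38.p6 and run from 250 bases before to 50 bases after the start, 300 bases in all, 5′ to 3′ on the gene's strand. Capitals mark CAGGTG or its reverse complement CACCTG, an E-box that the cadherin repressors Snai2 and Zeb1 are known to bind. The windows are Dsp at chr13:38151044-38151343 (plus strand), Ctnna2 at chr6:77979618-77979917 (minus strand), Ctnnb1 at chr9:120933150-120933449 (plus strand, the first of 2 listed) and Gja4 at chr4:127313990-127314289 (minus strand).
Dsp: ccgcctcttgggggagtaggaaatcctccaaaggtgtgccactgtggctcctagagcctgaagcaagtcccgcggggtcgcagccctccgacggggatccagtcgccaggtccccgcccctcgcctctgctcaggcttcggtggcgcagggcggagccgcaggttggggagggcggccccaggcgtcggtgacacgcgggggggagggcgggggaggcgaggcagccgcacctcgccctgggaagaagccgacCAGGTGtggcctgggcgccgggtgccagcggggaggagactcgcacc
Ctnna2: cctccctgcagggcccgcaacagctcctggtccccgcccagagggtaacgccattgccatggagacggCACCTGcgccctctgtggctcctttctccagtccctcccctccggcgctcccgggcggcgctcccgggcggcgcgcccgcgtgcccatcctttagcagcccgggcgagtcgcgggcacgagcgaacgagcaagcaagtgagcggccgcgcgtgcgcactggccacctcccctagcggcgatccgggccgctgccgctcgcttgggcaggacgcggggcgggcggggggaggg
Ctnnb1: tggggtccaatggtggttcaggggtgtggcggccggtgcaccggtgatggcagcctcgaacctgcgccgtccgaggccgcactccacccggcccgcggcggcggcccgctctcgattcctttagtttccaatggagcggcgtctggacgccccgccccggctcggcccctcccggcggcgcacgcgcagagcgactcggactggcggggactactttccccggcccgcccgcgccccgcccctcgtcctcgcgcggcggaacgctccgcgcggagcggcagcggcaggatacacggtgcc
Gja4: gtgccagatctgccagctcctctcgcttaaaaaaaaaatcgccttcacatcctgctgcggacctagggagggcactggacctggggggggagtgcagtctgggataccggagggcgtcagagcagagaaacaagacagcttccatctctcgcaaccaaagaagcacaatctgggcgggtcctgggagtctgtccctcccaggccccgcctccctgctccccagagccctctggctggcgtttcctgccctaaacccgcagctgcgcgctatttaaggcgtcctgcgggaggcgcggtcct
Dsp holds CAGGTG at position 254 of its window and Ctnna2 holds CACCTG at position 69. At 6 days off Dsp was called lower and Ctnna2 higher, and a role of these sites in either was not tested. Ctnnb1 and Gja4 hold neither. CACGTG, the E-box bound by Myc with Max, is in none of the 4.

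Windows were listed for 47 of the 66 genes, 57 windows in all, and none was listed for Ctnna1 or Cdh1. CAGGTG or CACCTG is in 16 of the 57 (28.1%), where 20.2% of 32851 windows of all genes hold it. CACGTG, its own reverse complement, is in 2 of the 57 (3.51%), those of Cdh15 and Epcam, where 7.15% of all windows hold it. Of the 16 called genes 11 have a window, of which 3 hold CAGGTG or CACCTG and 1 holds CACGTG. A match describes letters in a window and shows no binding.

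Of 12 cadherins, Cdh15 and Cdh4 were called in a comparison. E-cadherin, Cdh1, read 8.70, 8.85 and 8.55 at 21 days, against 8.39, 8.38 and 8.35 at 24 h and 8.54, 8.77 and 8.31 in untreated islets. All 3 arrays at 21 days lay above those at 24 h, but the difference of 0.33 ± 0.12 did not pass (adjusted p = 0.0533), and the 21 day and untreated arrays overlap. At 2 days off it read 8.42, 8.20 and 8.39, below the 21 day arrays, a difference of -0.36 ± 0.12 that was not called (adjusted p = 0.178). Its group means spanned 0.46, with 21 days highest at 8.70 and 8 h lowest at 8.24, and the F test put it just past the threshold (adjusted p = 0.0498).

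Of 11 measured repressors of cadherins and their partners, 2 were higher and 0 lower at 21 days against untreated islets. Of all genes, 7.95% were higher and 8.46% lower. The 2 repressors called higher were Snai2 (Slug) and Zeb1, zinc finger repressors of Cdh1. Snai2 read 8.44, 8.41 and 8.42 at 21 days, against 7.76, 7.69 and 7.77 in untreated islets, a rise of 0.68 ± 0.12 (adjusted p = 0.00112). Zeb1 read 9.15, 9.17 and 8.99 at 21 days, against 8.21, 8.48 and 8.84 in untreated islets, a rise of 0.59 ± 0.19 (adjusted p = 0.0436). Neither gene's 21 day arrays overlapped the untreated ones. Snai2 was also higher at 6 days off than in untreated islets, by 0.46 ± 0.12 (adjusted p = 0.02). Of 20 measured markers of mesenchyme, where both genes are known to be expressed, 2 were called higher and 0 lower at 21 days against untreated islets, with a median difference of 0.34. The part of such cells in these readings was not tested.

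N-cadherin, Cdh2, scattered widely, reading 5.17, 6.82 and 7.59 at 6 days off, and did not pass the F test (adjusted p = 0.891). Cdh15, the M-cadherin of muscle, read 5.08, 4.83 and 4.90 at 21 days and 4.99, 5.03 and 4.92 at 6 days off, against 5.42, 6.03 and 5.17 in untreated islets. Neither group overlapped the untreated arrays. Cdh15 fell by 0.60 ± 0.17 at 21 days (adjusted p = 0.0232) and by 0.56 ± 0.17 at 6 days off (adjusted p = 0.0384). The call at 21 days was not kept without replicate 2 or 3 at 21 days or replicate 2 in untreated islets (adjusted p up to 0.153), and that at 6 days off was not kept without replicate 1, 2 or 3 at 6 days off or replicate 1 or 2 in untreated islets (adjusted p up to 0.245). Cdh15 lies within the range of the bacterial controls, and its second probe set was not called, at 0.01 ± 0.13 at 21 days and -0.24 ± 0.13 at 6 days off.

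Cdh4, R-cadherin, read 6.95, 7.07 and 7.22 at 6 days off, against 7.42, 7.55 and 7.19 in untreated islets, with overlap. It fell by 0.31 ± 0.10 (adjusted p = 0.0478), a call not kept without replicate 1 or 2 at 6 days off or replicate 1 or 2 in untreated islets (adjusted p up to 0.215). Of 10 other fits 4 kept it, and that with the mean of its 3 probe sets did not. The other Cdh4 probe sets averaged 4.04 and 5.39 and did not pass the F test (adjusted p = 0.274 and 0.208). Cdh11, a cadherin of mesenchyme, passed the F test (adjusted p = 0.00785) with means from 3.32 at 4 h to 3.82 at 6 days off, below the median of the bacterial controls. Pcdh12, a protocadherin of endothelium, passed it too (adjusted p = 0.0148), with means from 7.48 at 4 days off to 7.94 in untreated islets.

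Partners of cadherins and desmosomes outside the 66 genes were followed with a list of 20 measured genes. At 6 days off against untreated islets 3 were lower and 0 higher, where 7.95% of all genes were lower and 5.56% higher. Pkp2, a plakophilin that sits beside desmoplakin in desmosomes, read 7.42, 8.37 and 8.56 at 6 days off, against 9.57, 9.49 and 10.28 in untreated islets, a fall of 1.66 ± 0.39 on the log2 scale, 3.17-fold lower (adjusted p = 0.00777). Its probe set name ends in _f_at, which marks probes shared within a gene family. Lima1, an actin binder that links alpha-catenin to the cytoskeleton, read 8.07, 7.97 and 8.01 at 6 days off and 8.06, 8.06 and 8.16 at 21 days, against 8.57, 8.64 and 8.55 in untreated islets. It fell by 0.57 ± 0.12 at 6 days off (adjusted p = 0.00457) and by 0.49 ± 0.12 at 21 days (adjusted p = 0.00953), with no overlap in either. Nectin3, an adhesion molecule of adherens junctions, fell by 0.37 ± 0.11 at 6 days off (adjusted p = 0.0257).

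Among these 20 genes, at 21 days against untreated islets, 2 were higher and 1, Lima1, was lower. Of all genes, 7.95% were higher and 8.46% lower. Lmo7, which binds afadin and alpha-actinin at adherens junctions, read 9.96, 10.24 and 10.30 at 21 days, against 8.23, 9.46 and 9.32 in untreated islets, a rise of 1.16 ± 0.26 (adjusted p = 0.00464). Ppl, periplakin of desmosomal plaques, rose by 0.41 ± 0.14 (adjusted p = 0.0471). None of the 20 was called at 4 days off against 21 days, where 6.91% of all genes were.

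**Figure D3:**
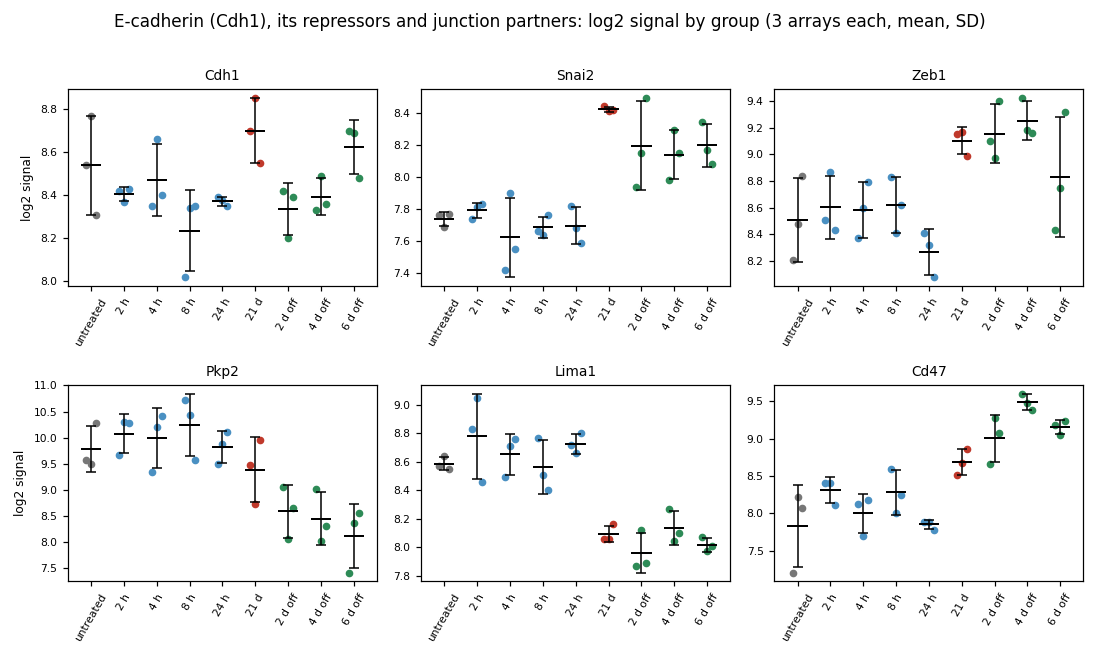
Log2 signal (vertical axis) of Cdh1, the repressors Snai2 and Zeb1, the junction partners Pkp2 and Lima1, and the integrin partner Cd47 by group (horizontal axis). Points are arrays, and means of 3 arrays are shown with their SD. Snai2 lies between 8.41 and 8.44 at 21 d, above all untreated arrays, and Cdh1 at 21 d overlaps its untreated arrays.

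Of 11 claudin and tight junction genes, Cldn11 and Cldn2 were called, both higher at 21 days. Cldn11, a claudin of myelin and testis, read 5.50, 5.57 and 4.78 at 21 days, against 4.51, 4.09 and 4.16 at 24 h and 4.61, 4.36 and 4.61 in untreated islets, with no overlap. It rose by 1.03 ± 0.21 against 24 h (adjusted p = 0.00175), 2.04-fold, and by 0.76 ± 0.21 against untreated islets (adjusted p = 0.0175). The call against 24 h was kept in all 6 fits that each left out 1 array (adjusted p at most 0.0144). With the acinar and leukocyte marker means as covariates it was not kept (adjusted p = 0.0655). The other call was not kept without replicate 1 or 2 at 21 days or untreated replicate 2 (adjusted p up to 0.097). Cldn11 lies within the range of the bacterial controls, and its second probe set was not called, at 0.20 ± 0.14 and 0.14 ± 0.14. Cldn2, which forms cation pores in leaky epithelia, read 7.04, 7.07 and 6.99 at 21 days, against 6.85, 6.50 and 6.66 at 24 h, a rise of 0.36 ± 0.10 (adjusted p = 0.0159) without overlap. That call was not kept without replicate 2 at 21 days or replicate 2 or 3 at 24 h (adjusted p up to 0.0953), and Cldn2 too lies within the range of the bacterial controls.

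The other tight junction genes were not called in any comparison. Cldn3 and Cldn4, claudins of pancreatic epithelium, averaged 6.64 ± 0.21 and 8.31 ± 0.24 at 21 days, and 7.04 ± 0.39 and 8.72 ± 0.45 at 24 h (SD, n = 3). A second Cldn3 probe set, averaging 5.14, passed the F test (adjusted p = 0.0438), where the chosen one did not (adjusted p = 0.0576). Cldn5, of endothelium, read 7.48, 5.82 and 6.06 at 6 days off, against 6.89, 6.66 and 6.17 in untreated islets. Ocln was highest at 21 days, at 5.52, 5.24 and 5.13, against 5.23, 4.83 and 4.91 at 24 h, a difference of 0.31 ± 0.13 (adjusted p = 0.102). Tjp1 (ZO-1), the scaffold under tight junctions, read 9.36, 9.35 and 9.37 at 4 days off, against 8.96, 8.95 and 8.67 at 21 days. The arrays do not overlap, but the difference of 0.50 ± 0.19 did not pass (adjusted p = 0.0953).

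At 21 days against untreated islets 8.46% of all genes were lower and 7.95% higher. Of 15 measured partners of tight and gap junctions, 1 was lower and 0 higher there. This was F11r (JAM-A), an adhesion molecule of tight junctions, which read 7.56, 7.54 and 7.75 at 21 days, against 8.10, 8.19 and 8.83 in untreated islets, and fell by 0.76 ± 0.23 (adjusted p = 0.0306). At 4 days off against 21 days 2 were higher and 1 lower, where 4.52% of all genes were higher and 2.39% lower. Pard6a, a polarity protein, read 8.77, 8.42 and 8.29 at 4 days off, against 7.83, 7.08 and 7.71 at 21 days, a rise of 0.95 ± 0.20 (adjusted p = 0.0154). Jam3, a relative of F11r, rose by 0.65 ± 0.19 (adjusted p = 0.0434), and Mpdz, a scaffold with many PDZ domains, fell by 0.35 ± 0.09 (adjusted p = 0.035).

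Of 10 connexins, 3 were called. Gja4, known from endothelium, read 8.76, 8.44 and 8.98 at 21 days, against 7.96, 7.81 and 8.16 at 24 h and 8.54, 8.25 and 7.75 in untreated islets. It rose by 0.75 ± 0.17 against 24 h (adjusted p = 0.00396), where no arrays overlap, and by 0.55 ± 0.17 against untreated islets (adjusted p = 0.0344), where they do. The call against 24 h was kept in all 6 fits that each left out 1 array (adjusted p at most 0.0242). With the acinar and leukocyte marker means as covariates it was not kept (adjusted p = 0.194). The other call was not kept without replicate 1 or 3 at 21 days or untreated replicate 2 or 3 (adjusted p up to 0.201). Gja4 read 9.05, 9.02 and 8.68 at 4 days off, its highest group, and its lowest was 24 h. Gjb5, its neighbour on the chromosome, had these extremes the other way round, with means from 6.38 at 4 days off to 6.88 at 24 h, and passed the F test alone (adjusted p = 0.0285).

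Gjb6 read 5.50, 5.66 and 5.62 at 4 days off, against 6.03, 6.07 and 5.95 at 21 days, and fell by 0.42 ± 0.11 (adjusted p = 0.0276) without overlap. Its call was not kept without replicate 1 or 2 at 21 days or replicate 1, 2 or 3 at 4 days off (adjusted p up to 0.142). It was also not kept with the mean of the gene's probe sets. The other Gjb6 probe sets averaged 3.04 and 3.84, below the median of the bacterial controls. Neither these nor the chosen one passed the F test (adjusted p = 0.122, 0.478 and 0.0783). Gjc1 read 5.98, 6.31 and 6.20 at 6 days off, against 6.62, 7.05 and 6.36 in untreated islets, and fell by 0.51 ± 0.14 (adjusted p = 0.0198), again without overlap. Its call was not kept without replicate 1 at 6 days off or replicate 2 in untreated islets (adjusted p up to 0.132). Both genes lie within the range of the bacterial controls. Gja1 scattered widely, at 10.05, 8.07 and 8.56 at 8 h and 7.25, 7.29 and 8.86 in untreated islets, and its difference of 1.08 ± 0.44 at 21 days against 24 h was not called (adjusted p = 0.0823). Gjb1, of exocrine pancreas and liver, had means between 6.87 and 7.22 and was called nowhere. Gjd2, the connexin known from beta cells, falls outside the symbol rule but is in the list of junction partners and is named after its values were seen. It read 5.16, 5.06 and 4.87 at 21 days, against 5.37, 5.58 and 5.13 in untreated islets, and was called in no comparison.

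Of 12 integrin alpha subunits, 2 were called in a comparison. Itga7, a laminin receptor of muscle, read 9.06, 9.07 and 9.05 at 21 days, against 8.47, 8.46 and 8.30 at 24 h and 8.66, 8.31 and 8.20 in untreated islets. The 21 day arrays lay above all those of both other groups. Itga7 rose by 0.65 ± 0.19 against 24 h (adjusted p = 0.0179) and by 0.67 ± 0.19 against untreated islets (adjusted p = 0.0197). The first call was not kept without replicate 2 at 21 days or replicate 3 at 24 h (adjusted p up to 0.0728), and the second was not kept without replicate 1 or 2 at 21 days or replicate 2 or 3 in untreated islets (adjusted p up to 0.0767). The name of the chosen Itga7 probe set ends in _f_at, as that of Pkp2 does. The chosen ones of Itgb1, Itgav, Gja1, Cldn7 and Itga8 end in _f_at too. Those of Cdh15, Cldn11, Gjc1 and Ctnnd2 end in _r_at, and may also be less specific to the gene than a plain _at. Of the other Itga7 probe sets, 1 was called higher in both comparisons, at 0.39 ± 0.11 and 0.36 ± 0.11, and 1 in neither, at -0.05 ± 0.13 and -0.21 ± 0.13. Itga5, the fibronectin receptor subunit, read 5.52, 5.37 and 5.37 at 4 days off, against 5.88, 5.75 and 5.64 at 21 days, and fell by 0.34 ± 0.09 (adjusted p = 0.0399), within the range of the bacterial controls. Its call was not kept without replicate 1 or 2 at 21 days or replicate 1, 2 or 3 at 4 days off (adjusted p up to 0.153).

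Itgb1, the beta subunit of most laminin and collagen receptors, had means from 11.73 at 24 h to 12.17 at 4 days off and was called nowhere, nor by the F test (adjusted p = 0.46). Itgav, the alpha subunit of vitronectin receptors, read 9.97, 9.86 and 9.70 at 2 days off, against 10.68, 10.67 and 10.27 at 21 days. The arrays do not overlap, and the difference of -0.70 ± 0.25 was not called (adjusted p = 0.215). Itga6, a laminin receptor subunit of epithelia, read 5.90, 5.86 and 6.05 at 21 days, against 6.48, 6.18 and 6.95 in untreated islets, a difference of -0.60 ± 0.28 that did not pass (adjusted p = 0.167) though the arrays do not overlap. Itgb5, a partner of Itgav, was highest at 4 days off, at 11.16, 10.55 and 10.30, and was not called. A second Itgb5 probe set, averaging 7.01, passed the F test (adjusted p = 0.0162), where the chosen one did not (adjusted p = 0.0827). Ncam1 and Epcam, adhesion molecules of endocrine cells and of epithelium, were called in no comparison, and Epcam read 5.09, 5.50 and 5.20 at 6 days off, against 5.60, 5.97 and 6.29 in untreated islets (adjusted p = 0.131). Of the other Ncam1 probe sets, that averaging 5.85 passed the F test (adjusted p = 0.045). That averaging 6.91 did not (adjusted p = 0.0914), nor did the chosen one (adjusted p = 0.189).

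Of 7 integrin beta subunits, Itgb3 and Itgb2l were called. Itgb3, of platelets and endothelium, read 5.48, 5.46 and 5.42 at 6 days off, against 5.80, 6.28 and 5.63 in untreated islets, and fell by 0.45 ± 0.12 (adjusted p = 0.0163) without overlap. Its call was not kept without replicate 2 in untreated islets (adjusted p up to 0.108). It was also not kept with marker covariates (adjusted p = 0.0688), without the leukocyte-rich arrays (adjusted p = 0.052) or in a fit to only the 6 arrays (adjusted p = 0.232). Itgb2l, a relative of Itgb2, read 6.31, 6.38 and 6.53 at 4 days off, against 6.94, 6.86 and 6.81 at 21 days, and fell by 0.46 ± 0.13 (adjusted p = 0.0375). Its call was not kept without replicate 1 or 2 at 21 days or replicate 1, 2 or 3 at 4 days off (adjusted p up to 0.167). Both lie within the range of the bacterial controls.

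For Itgb1bp1 the probe sets disagree. The chosen one read 7.66, 7.61 and 7.69 at 21 days, against 7.43, 7.33 and 7.25 at 24 h and 7.48, 7.37 and 7.30 in untreated islets, and was called higher, by 0.32 ± 0.09 (adjusted p = 0.0119) and 0.27 ± 0.09 (adjusted p = 0.0374). The first call was not kept without replicate 3 at 24 h (adjusted p up to 0.0643), and the second was not kept without replicate 1, 2 or 3 at 21 days or replicate 2 or 3 in untreated islets (adjusted p up to 0.123). Another was called lower, with differences of -1.07 (adjusted p = 0.000307) and -0.64 (adjusted p = 0.0156), and the mean of the gene's 3 probe sets gave -0.25 and -0.10, neither called.

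**Figure D4:**
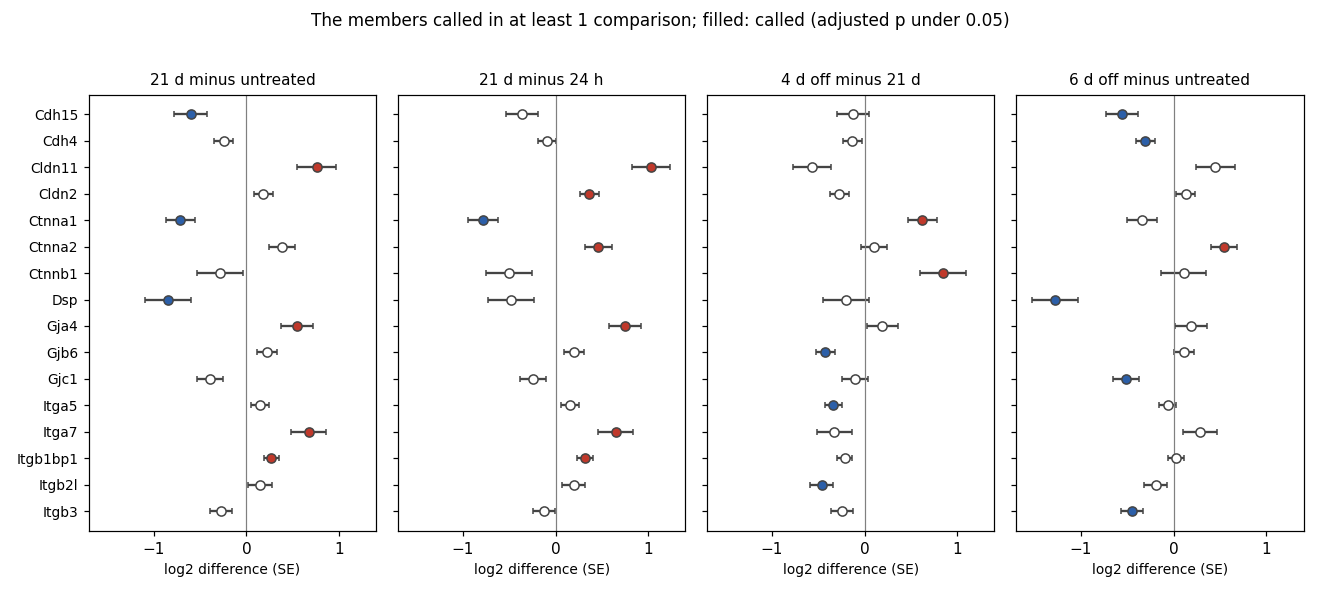
Log2 difference with its SE (horizontal axis) of the 16 genes called in at least 1 comparison (rows), in the 4 comparisons with calls. Filled points are called at an adjusted p under 0.05 and open points are not. Ctnna1 lies at -0.71 and -0.79 at 21 d and at 0.62 at 4 d off, and Dsp at -0.84 at 21 d and -1.28 at 6 d off.

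Among the integrins of blood cells, Itgb2 was highest in the arrays richest in leukocyte markers, and some others were not. Itgb2, the beta subunit of leukocyte integrins, had the widest span of group means of the 66 genes, 1.57, but was called in no comparison and not by the F test (adjusted p = 0.122). It read 7.97 in replicate 1 at 2 h, 7.51 in replicate 1 at 6 days off, 7.12 in replicate 3 at 8 h and 7.01 in replicate 2 at 2 days off, and at most 6.75 in the other arrays. These 4 arrays also had the 4 highest means over 44 measured leukocyte markers, at 8.47, 8.56, 8.32 and 8.10, where the other arrays lay between 7.06 and 7.93. Itgax, an alpha subunit of dendritic cells and macrophages, passed the F test (adjusted p = 0.0409), with means from 7.31 at 4 days off to 8.06 at 8 h. Itgal, the alpha subunit of LFA-1, had means between 6.60 and 6.79 and passed no test. Itgb7, of gut-homing lymphocytes and named after its values were seen, read highest in replicate 1 at 6 days off, at 9.27. Itgam, Itga4 and Itgae, subunits of myeloid cells and lymphocytes also named after their values were seen, did not follow these 4 arrays throughout. Of the 27 arrays Itgam ranked 1 in replicate 1 at 2 h, 10 in replicate 1 at 6 days off and 25 in replicate 3 at 8 h, counted from the highest. Itga4 ranked 23 and Itgae 26 in that array at 2 h. Other Itga4 probe sets, averaging 3.99 and 4.73, passed the F test (adjusted p = 0.000994 and 0.0286), where the chosen one did not (adjusted p = 0.286). Without the 4 leukocyte-rich arrays 18 of the 25 calls were kept.

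**Figure D5:**
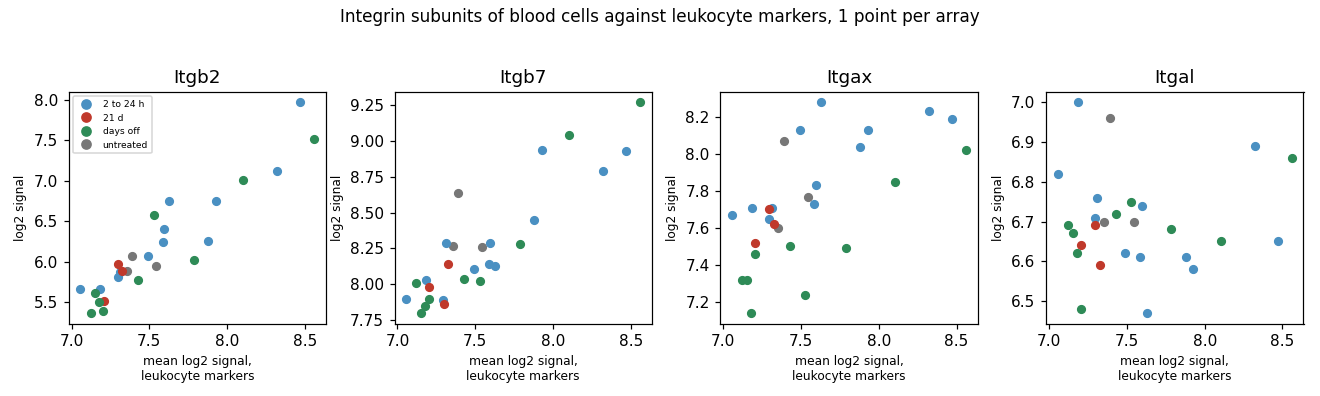
Log2 signal of Itgb2, Itgb7, Itgax and Itgal (vertical axes) against the mean log2 signal of 44 leukocyte markers (horizontal axis), 1 point per array. The 4 highest readings of Itgb2, 7.01 to 7.97, belong to the 4 arrays with the highest marker means, 8.10 to 8.56.

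Genes that work with integrins were followed with a pair of lists. Of 27 measured adaptors and partners, 3 were higher and 2 lower at 21 days against untreated islets. Of all genes, 7.95% were higher and 8.46% lower. At 6 days off against untreated islets 3 of the 27 were higher and 1 lower, where 5.56% and 7.95% of all genes were. Cd47, a partner of beta 3 integrins and a signal to macrophages, read 9.18, 9.05 and 9.24 at 6 days off and 8.52, 8.68 and 8.86 at 21 days, against 7.21, 8.22 and 8.07 in untreated islets. It rose by 1.32 ± 0.21 at 6 days off (adjusted p = 0.000523) and by 0.85 ± 0.21 at 21 days (adjusted p = 0.00822), with no overlap. Ptk2b (Pyk2), a kinase of focal adhesions, read 9.18, 9.53 and 9.45 at 21 days, against 8.98, 8.31 and 8.68 in untreated islets, and rose by 0.73 ± 0.16 (adjusted p = 0.00458). It read 8.46, 8.75 and 8.91 at 4 days off and fell by 0.68 ± 0.16 against 21 days (adjusted p = 0.0233). Cd81, a tetraspanin, rose by 0.83 ± 0.19 at 21 days against untreated islets (adjusted p = 0.00508), and Enah, an actin regulator, fell by 0.78 ± 0.17 at 6 days off (adjusted p = 0.00483).

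Of 32 measured integrin ligands, 4 were lower and 0 higher at 21 days against untreated islets. Of all genes, 8.46% were lower and 7.95% higher. Lamb2, a laminin beta chain of basement membranes, read 6.36, 6.10 and 6.57 at 21 days, against 7.51, 7.27 and 6.85 in untreated islets, and fell by 0.87 ± 0.21 (adjusted p = 0.00757). Icam2, an endothelial ligand of leukocyte integrins, fell by 0.85 ± 0.22 (adjusted p = 0.012), and Vtn, vitronectin, by 0.72 ± 0.16 (adjusted p = 0.0052). Against 21 days, 4 days off gave 3 ligands higher and 0 lower, where 4.52% of all genes were higher and 2.39% lower. Nid2, a linker of basement membranes, read 5.61, 5.91 and 6.26 at 4 days off, against 3.99, 3.58 and 3.87 at 21 days, and rose by 2.11 ± 0.42 (adjusted p = 0.0124). Of 18 measured endothelial markers, Icam2 among them, 3 were lower and 1 higher at 21 days against untreated islets, with a median difference of -0.15, and the part of endothelial cells in these readings was not tested.

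Beta-catenin is also the coactivator of Wnt target genes. A list of that pathway gave 11 measured genes: the targets Axin2, Ccnd1, Dkk1, Lgr5 and Cd44, the DNA-binding partners Lef1, Tcf7l1 and Tcf7l2, and Apc, Axin1 and Csnk1a1, parts of the complex that destroys beta-catenin. Ccnd1 (cyclin D1) read 9.84, 10.38 and 10.80 at 4 h and 10.17, 10.66 and 10.40 at 8 h, against 9.10, 8.94 and 9.24 in untreated islets. It rose by 1.25 ± 0.24 at 4 h (adjusted p = 0.0131) and by 1.32 ± 0.24 at 8 h (adjusted p = 0.00683), without overlap. At 4 days off against 21 days, where Ctnnb1 was higher, 0 of the 11 were higher and 1 was lower. This was Lef1, which fell by 0.32 ± 0.09 (adjusted p = 0.0434). Of all genes, 4.52% were higher and 2.39% lower there.

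Withdrawal was also tested at 2 and at 6 days off against 21 days. With limma 0 of the 66 genes were called at 2 days off, where 0.17% of all genes were, and 0 at 6 days off, where 0.339% were. At an unadjusted p under 0.05 the counts higher and lower were 1 and 10 at 2 days off and 1 and 5 at 6 days off. These are 16.7% and 9.09% of the 66 genes, where 16.6% and 14.8% of all genes passed. With array weights limma called 4 and 3, and 5.41% and 10.8% of all genes.

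Exocrine signal and a measure of RNA quality moved with some comparisons, as did beta cell markers. At 21 days against untreated islets, where Ctnna1 and Dsp fell, the 4 beta cell markers called lower were Pdx1, with a log2 difference of -1.01 ± 0.20 (SE), Slc2a2, at -1.63 ± 0.42, Abcc8, at -1.88 ± 0.30, and G6pc2, at -1.39 ± 0.31. Of these, Pdx1, Slc2a2 and G6pc2 were also the 3 called lower at 6 days off, and the part of these markers in the adhesion results was not tested. The mean of 18 measured acinar markers lay at 7.10 to 7.61 at 21 days, against 10.90 to 11.46 at 24 h and 7.81 to 10.37 in untreated islets. Against 24 h 15 of the 18 were called lower at 21 days, with a median difference of -4.14. With the acinar and leukocyte means as covariates, 0 of the 66 genes were called at 21 days against 24 h and 7 at 21 days against untreated islets, where Ctnna1 (adjusted p = 0.015) and Dsp (adjusted p = 0.00558) kept their calls. Gja4 (adjusted p = 0.096) and Itgb1bp1 (adjusted p = 0.113) did not, so these are not the same 7 genes as without covariates. The excess of the 3′ over the 5′ signal of the Gapdh control, which grows as RNA is shortened, lay at 3.46 to 4.06 at 4 days off, against 4.77 to 4.92 at 21 days. It lay at 3.70 to 3.90 at 24 h, also without overlap with 21 days, and at 3.65 to 5.67 in untreated islets. With it as a covariate 7 genes were called at 21 days against 24 h, where Itga7 lost its call (adjusted p = 0.0523). With the same covariate 1 gene was called at 4 days off against 21 days, Itgb2l, and the adjusted p of Ctnna1 was 0.0522 and that of Ctnnb1 0.135. Without replicate 1 or 2 of either group 0 genes were called in that comparison. The shares of all genes called in these covariate and leave-out fits were not counted. A loss of calls among adhesion genes therefore cannot be told from a loss over all genes.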

How the data were processed

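RNA from laser-captured islets was hybridised to 27 Affymetrix mouse arrays, 3 in each of 9 groups, and groups were taken from the sample labels. The RNA was total RNA, amplified linearly in 2 rounds and labelled with biotin, per the labels. The submitters' processing notes name RMA as the tool by which the authors made the deposited log2 values, with no version or settings. Since RMA quantile-normalises arrays, a shift common to all genes would not show. The number of arrays limits the precision.

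From these values, limma 3.58.1 in R 4.3.3 fitted 9 group means to all 27 arrays (18 residual degrees of freedom) with eBayes, two-sided, without covariates. P-values were adjusted by Benjamini-Hochberg over 12422 probe sets, after 66 control probe sets of 12488 were left out, with the threshold for a call at an adjusted p of 0.05. Probe sets were named from the platform annotation: 10833 had 1 symbol, 396 several and 1193 none. Counts over all genes use 1 probe set for each of 8251 genes, as for the 66 genes, and 33 other probe sets of those were read separately. With 3 arrays against 3, an exact permutation test cannot go below p = 0.1, so single genes were tested only in the fit across all probe sets. The fit was tested on simulated data.

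Named are the genes called in a comparison or by the F test, the 10 brightest, the 10 with the widest span of group means, a panel of well-known adhesion genes, and at most 3 called genes per partner list and comparison. Of 348 symbols in 15 lists of partners and cell type markers, 252 were measured. The members and the lists were chosen with earlier results of these data known. Replicate numbers were not treated as pairs. Correlations of same-numbered arrays' deviations ran from -0.234 to 0.361, and in 0 of 10 comparisons were all over 0.1. With 3 arrays per group this check cannot exclude a pairing or a batch shared by replicate number. Alternatives were a fit to only the arrays compared, array weights, a replicate block, median centring, quantile normalisation and averaging each gene's probe sets. Others were leaving out the dimmest 40% of probe sets, and marker means or the Gapdh ratio as covariates. Leukocyte-rich arrays (marker mean more than 0.5 above the mean of all arrays) were also left out, as was each array in turn.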

Additional observations from a re-analysis of the deposited data

Results flagged for a closer look

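Effects at 21 days of daily dosing and at 24 h after 1 injection, each relative to the same untreated arrays, differed by a test of the difference itself for 7 of the 66 genes (10.6%), against 21.8% of all genes. The difference was -0.79 for Ctnna1 (limma adjusted p = 0.00191), 1.03 for Cldn11 (adjusted p = 0.00175), 0.75 for Gja4 (adjusted p = 0.00396) and 0.65 for Itga7 (adjusted p = 0.0179). It was 0.46 for Ctnna2 (adjusted p = 0.0236), 0.36 for Cldn2 (adjusted p = 0.0159) and 0.32 for Itgb1bp1 (adjusted p = 0.0119). Because the untreated arrays cancel, each value equals the difference of 21 days from 24 h in the report. With the acinar and leukocyte marker means as covariates 0 of the 7 were called, and the share of all genes called in that fit was not counted. The groups also differed in number of doses, in acinar markers and in the excess of 3′ over 5′ Gapdh signal, which averaged 4.83 ± 0.08 at 21 days and 3.78 ± 0.11 at 24 h (SD, n = 3 each) without overlap. The part of these in the 7 differences was not tested beyond the covariate fits.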

How the results depend on the processing

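Of the 25 called pairs of gene and comparison, 25 were kept with array weights, 23 with median centring, 21 with quantile normalisation, 19 with the Gapdh covariate, 18 without the leukocyte-rich arrays, 17 with probe sets averaged per gene, 13 with marker covariates and 10 in fits to only the 6 arrays compared. Leaving out the dimmest 40% of probe sets left 17 pairs with a value, all 17 kept. The replicate block kept 24 pairs and lost Cdh4 at 6 days off; with the block, 8 genes were called at 21 days against untreated, 8 at 21 days against 24 h, 5 at 4 days off, 5 at 6 days off against untreated and 16 by the F test. Directions reversed for Itgb1bp1 with the mean of its probe sets, to -0.25 at 21 days against 24 h and -0.10 against untreated.

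At 21 days against untreated (7 called) the count was 4 with the mean of probe sets and 2 with 6 arrays. At 21 days against 24 h (7 called) it was 0 with marker covariates and 17 with array weights, where 35.1% of all genes were called. At 4 days off against 21 days (5 called) it was 19 with array weights, where 28.6% of all genes were called. It was 1 with the Gapdh covariate, 1 with quantile normalisation and 3 with the mean of probe sets. It was 3 without the leukocyte-rich arrays and 3 of 34 genes tested without dim probe sets. At 6 days off against untreated (6 called) it was 10 with array weights, where 21.3% of all genes were called. It was 3 with marker covariates, 0 with 6 arrays, 3 without dim probe sets and 2 without the leukocyte-rich arrays. Array weights gave 4 at 2 days off and 3 at 6 days off against 21 days (0 each), where 5.41% and 10.8% of all genes were called. They gave 34 by the F test (17), which was 3 with marker covariates. Among the alternative fits, shares of all genes were counted only with array weights, and not for the F test. The estimation of array weights stopped before it converged. The cause of these shifts was not tested, except that 6 arrays leave fewer samples.

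Leaving out 1 array gave 0 to 0 genes at 2 h and at 4 h, 0 to 2 at 8 h, 0 to 1 at 24 h, 1 to 7 at 21 days against untreated and 4 to 8 against 24 h. It gave 0 to 0 at 2 and at 6 days off against 21 days, 0 to 7 at 4 days off, 2 to 7 at 6 days off against untreated and 11 to 21 by the F test. The count fell to 1 without untreated replicate 2 at 21 days against untreated, and to 2 without it at 6 days off. In all such fits 5 of the 25 pairs were kept: Ctnna1, Cldn11 and Gja4 at 21 days against 24 h, Ctnna1 at 21 days against untreated and Dsp at 6 days off. Dim signal limits to differing degrees what can be said of the 40 genes not above all bacterial controls. The brightest control, at 7.14, stood apart from the others, at most 5.68.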
